A study of Mus musculus with 9 samples.

Results

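Mitochondrial ribosomal protein genes were followed in splenic regulatory T cells (Tregs) with and without gp96, the endoplasmic reticulum chaperone encoded by Hsp90b1. The members were all entries of the deposited expression table whose name begins with Mrpl or Mrps and a digit, leaving out 4 entries with -ps in the name. This gave 77 genes of 25500 entries, 48 named Mrpl and 29 named Mrps. WT mice carried Foxp3 eGFP-Cre-ERT2 with Hsp90b1 WT/WT and KO mice Foxp3 eGFP-Cre-ERT2 with Hsp90b1 fl/fl. Both genotypes were on a C57BL/6 background, and tamoxifen was given to all mice for 10 days at 75 mg/kg, so the inducible Cre, driven in cells that express Foxp3, and the drug were shared by the controls. Mice were 8 to 12 weeks old, and GFP-positive Tregs were sorted from the spleen. The labels name 4 WT and 5 KO libraries of bulk RNA-Seq, WT 1 to WT 4 and KO 1 to KO 5, while the methods give 4 mice per genotype.

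The mitochondrial ribosome (mitoribosome) translates the few mRNAs of the mitochondrial genome, all of which encode subunits of the respiratory chain and ATP synthase. Its rRNAs come from mitochondrial DNA, but all of its proteins are encoded in the nucleus, made on cytosolic ribosomes and imported. Part of these proteins have counterparts in the bacterial ribosome and part are found in mitochondria only. In effector and regulatory T cells alike, mitochondrial translation supports respiration, and mitoribosome genes are among those that rise when T cells grow after activation.

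By known structure, 30 members encode large subunit proteins with a bacterial counterpart, 20 encode large subunit proteins specific to mitochondria, 16 encode small subunit proteins with a bacterial counterpart and 10 encode small subunit proteins specific to mitochondria. Mrps30 and Mrps18a are named for the small subunit but sit in the large subunit and were counted there. Mrps36 carries a mitoribosome name but is known as a component of the 2-oxoglutarate dehydrogenase complex, and was kept outside both subunits. The members lie on 17 chromosomes, with the most, 11, on chromosome 11. None of the 77 fell below the limit for testing, which was a level above 1 FPKM (fragments per kilobase of exon, scaled to sequencing depth) in at least 4 libraries.

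Promoters are shown for Mrps6, Mrpl45, Mrpl52 and Mrpl33, the genes on which the comparison of genotypes turns. Each sequence is the RefSeq window on GRCm38.p6 from 250 bases before to 50 bases after a start that RefSeq gives for the gene, read 5′ to 3′ on the + strand, at chr16:92058086-92058385 for Mrps6, chr11:97315466-97315765 for Mrpl45, chr14:54426659-54426958 for Mrpl52 and chr5:31613701-31614000 for Mrpl33. Capitals mark matches on either strand to letters of the NRF1 motif (GCGCA, any base, then GCGC), the ETS motif (CCGGAAG), the YY1 motif (AAGATGG) and the GC box (GGGCGG).
Mrps6: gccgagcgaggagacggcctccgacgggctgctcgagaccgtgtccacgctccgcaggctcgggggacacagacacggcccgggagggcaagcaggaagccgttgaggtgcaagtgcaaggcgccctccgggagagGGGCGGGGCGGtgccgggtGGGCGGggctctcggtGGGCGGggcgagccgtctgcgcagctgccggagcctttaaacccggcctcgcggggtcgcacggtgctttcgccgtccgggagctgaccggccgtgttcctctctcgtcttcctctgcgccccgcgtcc
Mrpl45: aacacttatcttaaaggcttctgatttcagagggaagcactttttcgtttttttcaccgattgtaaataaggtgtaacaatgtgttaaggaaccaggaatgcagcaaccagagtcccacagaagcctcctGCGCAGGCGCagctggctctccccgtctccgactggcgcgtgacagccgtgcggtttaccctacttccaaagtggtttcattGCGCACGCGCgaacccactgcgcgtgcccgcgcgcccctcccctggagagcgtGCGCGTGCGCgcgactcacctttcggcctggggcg
Mrpl52: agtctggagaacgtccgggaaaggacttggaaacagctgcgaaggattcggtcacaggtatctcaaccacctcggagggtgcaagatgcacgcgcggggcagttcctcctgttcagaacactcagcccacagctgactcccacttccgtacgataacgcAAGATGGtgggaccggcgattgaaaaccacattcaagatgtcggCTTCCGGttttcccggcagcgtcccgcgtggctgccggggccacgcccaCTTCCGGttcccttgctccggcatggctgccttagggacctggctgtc
Mrpl33: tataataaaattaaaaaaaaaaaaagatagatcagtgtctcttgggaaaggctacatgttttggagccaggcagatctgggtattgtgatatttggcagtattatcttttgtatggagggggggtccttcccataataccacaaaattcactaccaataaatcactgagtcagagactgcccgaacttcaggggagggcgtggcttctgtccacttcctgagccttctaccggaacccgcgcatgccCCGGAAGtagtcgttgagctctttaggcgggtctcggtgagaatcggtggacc
The Mrps6 window held 4 matches to the GC box, 2 of which overlapped, and the Mrpl45 window held 3 matches to the NRF1 motif. The Mrpl52 window held 2 matches to the ETS motif and 1 to the YY1 motif. The Mrpl33 window held 1 match to the ETS motif. For Mrpl33 and Mrps6 the RefSeq start differs from the gene start in the annotation used for the coordinates below, and for both it lies inside the annotated gene.

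NRF1 and the ETS factor GABP are known activators of nuclear genes for mitochondrial proteins, and the same letters were counted in all windows. RefSeq windows were at hand for 68 of the 77 genes, in 74 windows because some genes have more than 1 start. The ETS letters were found in 25 of the 74 (33.8%), against 8.86% of all 32851 windows of the same length. The NRF1 letters were found in 13 (17.6%), against 4.6% of all windows. The YY1 letters were also found in 13, against 6.34% of all windows, and the GC box in 39 (52.7%), against 35.7%. The TATA box (TATAAA) was found in 5 (6.76%), against 13.6%, and the CCAAT box (CCAAT) in 29 (39.2%), against 37.4%. These are counts of letters, and they show which windows hold the match and not which factor is bound.

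Recovered read totals ran from 12068195 to 24522263 per library. Hsp90b1 was at 44.4 to 62.9 FPKM in the WT libraries and at 1.77 to 3.11 FPKM in the KO libraries, as the labels state. The Treg and T cell markers Foxp3, Il2ra, Ctla4, Ikzf2, Cd3e, Cd4 and Trac were all above 0 in all libraries. Foxp3 was lowest in KO 1, at 55.0 FPKM, and Il2ra was at 42.0 to 50.8 FPKM in KO against 101 to 127 in WT. WT 1 and KO 1 lay away from the remaining 7 on the first principal component, which held 58.6% of the variance over tested genes (scores of −69.9 and −67.6, against 8.88 to 26.3 in the rest). Malat1, a nuclear RNA, was at 24.9 FPKM in WT 1 and 30.6 in KO 1, against 182 to 374 FPKM elsewhere. Because both genotypes hold 1 such library, all 9 were compared, and counts of members are also given without these 2.

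Nearly all members were higher in WT 1 and KO 1 than in the other libraries, and this difference exceeded that between genotypes. The summed level of the 77 genes was 1524 FPKM in WT 1 and 931, 950 and 932 in WT 2, 3 and 4. It was 1538 FPKM in KO 1 and 859, 853, 854 and 816 in KO 2, 3, 4 and 5. Thus WT 1 was at 1.63 times the mean of the other WT libraries and KO 1 at 1.82 times the mean of the other KO libraries, whereas these 2 libraries were close to each other. Apart from them, the 4 KO sums all lay below the 3 WT sums, and their mean was 90.2% of the WT mean. Large subunit genes (90.9%) and small subunit genes (88.4%) gave similar shares, as plotted by library.

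**Figure D1:**
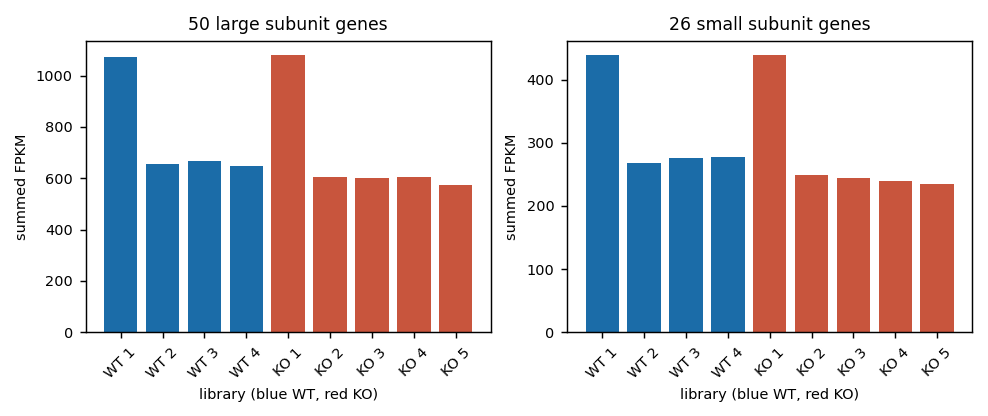
Summed FPKM of the 50 large subunit and 26 small subunit genes in each of the 9 libraries (blue, WT; red, KO; each bar is 1 library). WT 1 and KO 1 reach 1073 and 1082 FPKM for the large subunit, against 575 to 667 FPKM in the other 7 libraries.

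Member by member, WT 1 and KO 1 were both above each of the other 7 libraries for 68 of the 77 genes, against 35.3% of all tested genes. The median difference of WT 1 from WT 2 to 4 was 0.64 on the scale of log2(FPKM + 1), and that of KO 1 from KO 2 to 5 was 0.77, while the medians over all tested genes were 0.08 and 0.10. On this scale Mrpl34 was furthest apart in WT 1 and Mrpl14 in KO 1. Mrpl34, a large subunit protein with a bacterial counterpart, was at 71.2 FPKM in WT 1, 69.6 in KO 1 and 25.1 to 32.6 in all others. Mrps10 and Mrpl37 were the exceptions that went the other way, with both libraries below the other 7. Mrpl37 was at 7.90 FPKM in WT 1 and 8.77 in KO 1 against 10.8 to 12.3, and Mrps10 at 1.80 and 2.29 against 2.62 to 3.09.

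The 2 differences were alike across members, with a correlation of 0.89 over the 77 genes, which share the same 2 libraries and are not independent. Transcript length moved with the size of the difference. The 39 members with an annotated exon length of up to 2533 bases had medians of 0.67 in WT 1 and 0.96 in KO 1, and the 38 longer members had 0.51 and 0.59. Tested genes in the same 2 ranges of length had 0.27 and 0.43, and 0.13 and 0.15, so that at either length the members lay above the other genes. The part of length, RNA quality or cell state in these 2 libraries was not tested.

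**Figure D2:**
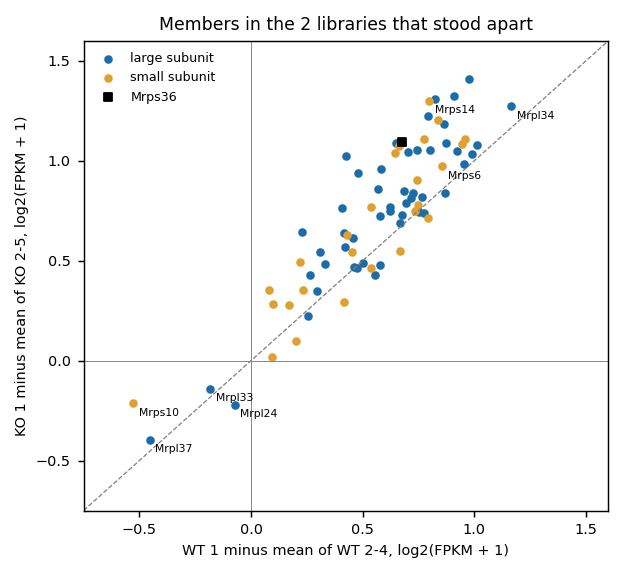
Difference of WT 1 from the mean of WT 2 to 4 (x axis) and of KO 1 from the mean of KO 2 to 5 (y axis), both in log2(FPKM + 1), for each of the 77 genes (blue, large subunit; orange, small subunit; black square, Mrps36; dashed line, equal differences). 73 of the 77 genes lie above 0 on both axes, against 49.3% of all tested genes, and Mrps10, Mrpl37, Mrpl33 and Mrpl24 lie below 0 on both.

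Other gene groups of the same machinery showed the same 2 libraries in a graded way. Cytosolic ribosomal protein genes, which encode the ribosome of the cytoplasm, had medians of 1.34 in WT 1 and 1.45 in KO 1 over 88 tested genes. Nuclear genes for respiratory chain and ATP synthase subunits had 0.89 and 1.21 over 77 tested genes, and the 15 mitochondrially encoded genes had 0.97 and 1.25. By contrast, 21 mitochondrial tRNA synthetases and related tRNA enzymes, partners of the mitoribosome, had medians of −0.13 and −0.16, and 24 assembly factors and rRNA-modifying enzymes had 0.10 and 0.08.

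Levels per length differed widely among members, although each protein is present in 1 copy or few copies per mitoribosome. Means over the 9 libraries ran from 2.12 FPKM for Mrps25 to 54.9 FPKM for Mrpl52, which is 25.9-fold, with a median of 10.8 FPKM against 7.75 FPKM for all tested genes. Among large subunit names, Mrpl52, Mrpl24, Mrpl34, Mrpl43 and Mrpl41 were highest, at 54.9, 42.8, 38.7, 29.7 and 27.5 FPKM, and Mrpl47, Mrpl48 and Mrpl17 were lowest, at 2.32, 2.81 and 3.07 FPKM. Among small subunit names, Mrps21 (42.0 FPKM), Mrps23 (33.8), Mrps24 (22.8), Mrps12 (19.4) and Mrps15 (19.3) led, and Mrps25 (2.12), Mrps10 (2.72) and Mrps22 (2.80) were lowest. Mrps12, whose bacterial counterpart lies at the decoding centre, and Mrps15 do not differ beyond their spread. FPKM divides by the annotated exon length, which ran from 607 to 8631 bases, so that a gene with long minor exons reads low.

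Within a genotype the members varied little once WT 1 and KO 1 were set aside. The median coefficient of variation was 4.91% over WT 2 to 4 (6.86% for all tested genes) and 7.72% over KO 2 to 5 (7.58%), against 28.9% over all 9 libraries. Over the 9 libraries Mrps6, Mrpl14, Mrpl51 and Mrpl34 varied most, at 54.6%, 48.4%, 48.2% and 47.0%. Median recovered reads per library ran from 141 to 1515 among the 72 members for which reads could be recovered, so that counting error is part of this spread, the more so for members with few reads.

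The comparison of genotypes asked whether loss of gp96 moved the members. When all 9 libraries were compared without regard to the 2 that stood apart, no member passed limma's test at a Benjamini-Hochberg adjusted p of 0.05. This test called 3.21% of 12312 tested genes higher and 3.55% lower in KO. At an unadjusted p under 0.05, 2 members were lower and 1 was higher. The share of all tested genes at that limit is not given here, so these counts have no background. Fold changes are given on the scale of log2(FPKM + 1), which understates changes of low genes. The median log2 fold change of the members was −0.11 against 0.02 for all tested genes. Of the members 61 of 77 were below 0, against 47.3% of all tested genes.

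The members' median leaned on the 2 libraries. Without WT 1 it was 0.01, with 37 members below 0 (all tested genes: median 0.02, 47.1% below 0). Without KO 1 it was −0.28, against 0.005 for all tested genes. In that fit 3 members were lower (Mrps6, Mrpl45 and Mrpl11, 3.9% against a background of 6.68%) and 1 was higher (Mrpl33, 1.3% against 6.58%). The methods give 4 mice per genotype and do not say which of the 5 KO libraries these were. Leaving out KO 2, 3, 4 or 5 instead gave medians of −0.09, −0.10, −0.09 and −0.08, with no member called. The fits without WT 1 and without KO 1 each place the high level of the remaining library of the 2 in 1 genotype only. A fit with a term that allows WT 1 and KO 1 a shared difference of their own for each gene keeps both in the comparison, and gave a median of −0.09 against 0.02 for all tested genes.

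With that term 26 members passed the test, 20 lower and 6 higher in KO. The background with the same term was 17% lower and 19.3% higher, so that the 20 of 77 lower members (26%) were somewhat above the background and the 6 higher members (7.79%) were below it. With WT 1 and KO 1 left out the counts were 20 lower (26%, background 17.1%) and 3 higher (3.9%, background 19.5%), and 20 of these 23 genes were among the 26. The other 6 of the 26 (Mrpl1, Mrpl35, Mrpl48, Mrpl38, Mrpl4 and Mrps18b) did not pass without the 2 libraries. With the replicate number as a block the counts were 9 lower (11.7%, background 13.1%) and 3 higher (3.9%, background 15%), all 12 among the 26. In that fit the share of lower members was thus not above the background. KO 5 has no partner and adds nothing to it. In WT 2 to 4 and KO 2 to 5, 27 members were lower in KO without overlap between genotypes (background 21.1%) and 5 were higher (background 23.5%).

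Most of the changes were small. Only Mrps6 and Mrpl45 fell by more than 0.5 on the log2 scale, the other falls ran from −0.47 to −0.17, and the rises ran from 0.16 to 0.26. The 51 members that did not pass had log2 fold changes of −0.28 to 0.12. In the pair of libraries that stood apart, KO 1 was below WT 1 for 17 of the 20 genes that fell with the term, the other 3 being Mrpl11, Mrpl16 and Mrpl36, and above WT 1 for all 6 that rose, although KO 1 and WT 1 also entered that fit.

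**Figure D3:**
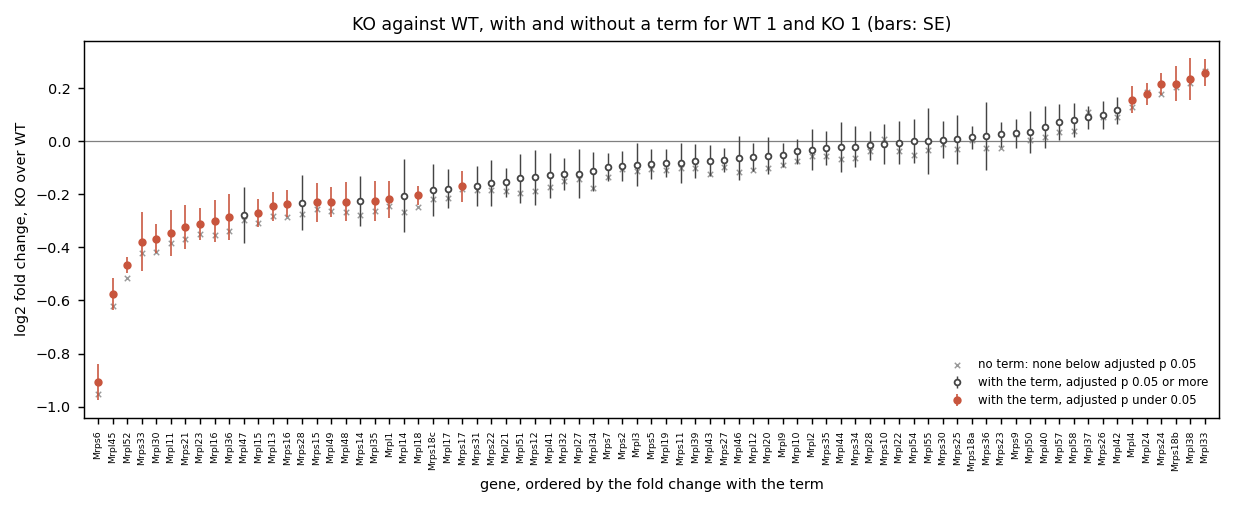
Log2 fold change of KO over WT for each of the 77 genes, ordered by size, from limma on log2(FPKM + 1) with a term for WT 1 and KO 1 (circles with SE bars; red, adjusted p under 0.05; white, not) and without the term (grey crosses, none called). The circles run from −0.91 for Mrps6 to 0.26 for Mrpl33, and most crosses lie close to their circles.

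These calls also depended on scaling. The deposited values had been scaled so that the typical gene was level across libraries. Rescaled to an equal total per library, the median of all tested genes moved to 0.16 and that of the members to 0.03, so the members' median differed from that of all genes by −0.13 under both scalings. With equal totals 61.3% of all called genes were higher in KO, against 47.5% as deposited, and with the term 69.0% against 53.2%. Under equal totals with the term, 2 members passed, Mrps6 and Mrpl45, both lower, although all 26 genes kept their direction. Totals of FPKM were uneven, with WT 1 and KO 1 highest in cytosolic ribosomal protein genes and a single non-coding entry, Gm23935, at 1001 to 91391 FPKM. With that entry left out of the totals, 13 members were lower and 8 higher with the term.

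Among small subunit genes Mrps6 changed most. Its bacterial counterpart lies on the platform of the small subunit. Mrps6 was at 17.0 FPKM in WT 1 and 9.60, 9.30 and 7.97 in WT 2, 3 and 4, and at 9.19 in KO 1 and 4.01, 3.88, 4.65 and 4.27 in KO 2, 3, 4 and 5. The 4 lower KO libraries were all below all WT libraries, and KO 1 was level with WT 2 to 4 but below WT 1. Its mean in KO 2 to 5 was 46.9% of that in WT 2 to 4 (4.20 ± 0.342, n = 4, against 8.95 ± 0.866, n = 3, SD), and KO 1 was at 54.1% of WT 1. The log2 fold change was −0.95 ± 0.27 (SE) without the term (limma, adjusted p = 0.0748; exact permutation p = 0.0238, two-sided, 9 libraries) and −0.91 ± 0.07 with it (limma, adjusted p = 3.15e-05; with the block, 0.00234). With equal totals and no term it passed (limma, adjusted p = 0.0208).

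Mrps6 lies on chromosome 16 at 92058270 to 92112227 (GRCm38, + strand), and its annotated exons overlap those of Gm49711 and of Slc5a3, a myo-inositol transporter gene, on the same strand. Slc5a3 was at 1.90 FPKM in WT 1, 3.54 to 3.84 in WT 2 to 4, 1.09 in KO 1 and 1.80 to 2.13 in KO 2 to 5. It was thus lower in KO as well (log2 fold change with the term −0.62 ± 0.07, limma, adjusted p = 0.000249). Reads shared by these genes cannot be told apart in this table.

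Mrpl45 and Mrpl52, both specific to the mitochondrial large subunit, came next. Mrpl45 sits near the exit of the peptide tunnel, where in human mitochondria it helps to hold the ribosome at the inner membrane. It was at 20.7 FPKM in WT 1, 11.2, 12 and 11.2 in WT 2 to 4, 15.7 in KO 1 and 7.23, 6.75, 7.6 and 6.64 in KO 2 to 5. All KO libraries except KO 1 lay below all WT libraries, and KO 1 lay below WT 1 only. The log2 fold change was −0.58 ± 0.06 with the term (limma, adjusted p = 0.00017; with the block, 0.00495) and −0.62 ± 0.27 without it (limma, adjusted p = 0.268; exact permutation p = 0.0635, two-sided). Its exons on chromosome 11 (97315716 to 97329920, + strand) overlap no other annotated gene.

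Mrpl52, the member with the highest level, was at 105 FPKM in WT 1, 52.5, 53.3 and 54.4 in WT 2 to 4, 76.4 in KO 1 and 37.5, 38.6, 39.2 and 37.4 in KO 2 to 5. The libraries of each genotype were tight, KO 2 to 5 were at 71.5% of WT 2 to 4, and KO 1 was at 73.1% of WT 1. Its log2 fold change with the term was −0.47 ± 0.03 (limma, adjusted p = 1.43e-05; with the block, 0.00138), the smallest adjusted p among members, whereas without the term it was −0.52 ± 0.28 (limma, adjusted p = 0.412; exact permutation p = 0.214, two-sided). Its exons on chromosome 14 (54426909 to 54429756, + strand) overlap no other annotated gene.

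Mrpl33, a large subunit protein with a bacterial counterpart, was the only member whose genotypes did not overlap over all 9 libraries, against 5.69% of tested genes separated downward and 6.1% upward. It was higher in KO, at 4.11, 4.77, 4.58 and 5.05 FPKM in WT 1 to 4 and 5.25, 6.0, 6.04, 6.09 and 5.46 FPKM in KO 1 to 5. The mean was 4.63 ± 0.395 (SD, n = 4) in WT and 5.77 ± 0.385 (SD, n = 5) in KO, and the exact permutation p was 0.00794 (two-sided), the smallest that these 9 libraries can give. It did not pass limma without the term (log2 fold change 0.27 ± 0.08, adjusted p = 0.113) and passed with it (0.26 ± 0.05, adjusted p = 0.00434; with the block, 0.0151). The annotated gene on chromosome 5 (31596935 to 31664384, + strand) has 13 exon blocks, and its exons overlap Gm43809 on the same strand at 1 place or more, so its reads may include those of other transcripts.

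**Figure D4:**
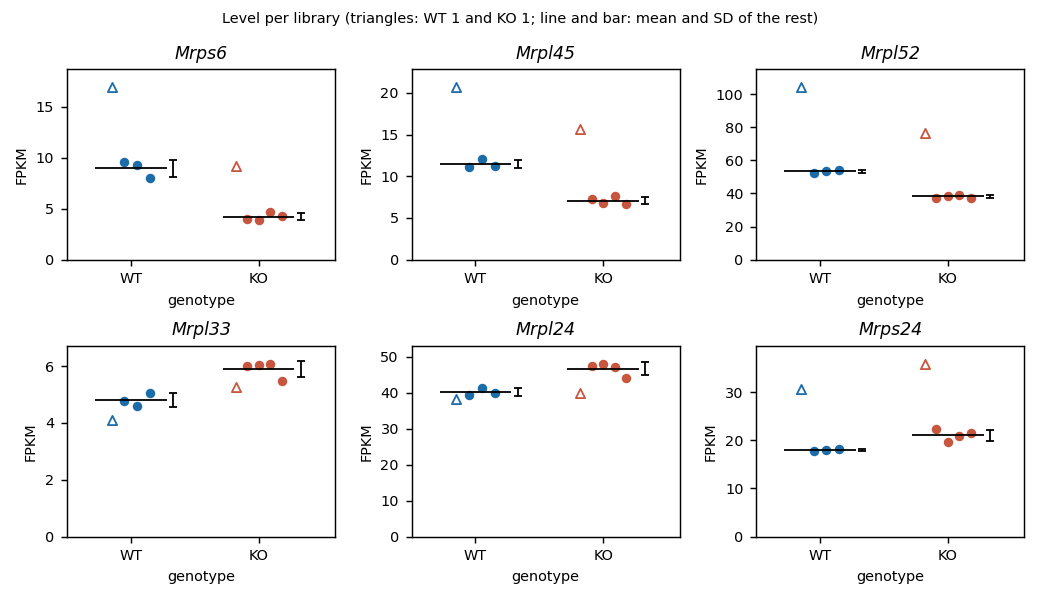
FPKM of Mrps6, Mrpl45, Mrpl52, Mrpl33, Mrpl24 and Mrps24 per library in WT (blue) and KO (red); triangles are WT 1 and KO 1, and the line and bar are the mean and SD of the other 3 WT or 4 KO libraries. Mrps6, Mrpl45 and Mrpl52 are lower in KO both among triangles and among circles, Mrpl33 separates in all 9 libraries, and Mrpl24 and Mrps24 separate among the circles.

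Mrpl24, whose bacterial counterpart starts assembly of the large subunit, was at 38.2 FPKM in WT 1, 39.4, 41.4 and 39.8 in WT 2 to 4, 39.9 in KO 1 and 47.3, 48.1, 47.3 and 44.2 in KO 2 to 5. KO 2 to 5 lay above all WT libraries and KO 1 lay among them. The log2 fold change was 0.18 ± 0.04 with the term (limma, adjusted p = 0.0102; with the block, 0.0352) and 0.19 ± 0.09 without it (limma, adjusted p = 0.327). Its exons overlap Rrnad1 on the opposite strand, and the sources do not say if reads were counted by strand. Mrps24, the counterpart of a bacterial protein at the mRNA entry channel, was at 30.7 FPKM in WT 1, 17.8, 18 and 18.3 in WT 2 to 4, 36.0 in KO 1 and 22.3, 19.7, 20.8 and 21.4 in KO 2 to 5, with a log2 fold change of 0.21 ± 0.04 with the term (limma, adjusted p = 0.00397; with the block, 0.0271). Its exons overlap Urgcp on the same strand. KO was at 117% of WT both in the 7 similar libraries and in the pair that stood apart. The other genes that rose with the term were Mrps18b, Mrpl38 and Mrpl4, with log2 fold changes of 0.22, 0.24 and 0.16. None of these 3 passed without WT 1 and KO 1 (limma, adjusted p = 0.0827, 0.104 and 0.109) or with the block (0.106, 0.0696 and 0.0519).

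The remaining genes that fell with the term were led by Mrpl30, Mrpl18, Mrpl23, Mrpl15 and Mrps16, all with bacterial counterparts, at 73.3%, 86.7%, 78.2%, 77% and 81.5% of the WT 2 to 4 mean in KO 2 to 5. Mrpl30 was at 14.3 to 15.8 FPKM in WT 2 to 4 and 10.5 to 11.9 in KO 2 to 5 (limma with the term, adjusted p = 0.00124). Mrpl23, whose bacterial counterpart rims the peptide exit, was at 5.86 to 6.49 and 4.37 to 5.32 FPKM (limma, adjusted p = 0.0044). Mrpl11, of the stalk base, was at 7.05 to 7.53 and 4.64 to 5.74 FPKM (adjusted p = 0.0144), but at 10.6 FPKM in WT 1 and 10.7 in KO 1, so the pair that stood apart did not share its difference. Mrps33, specific to mitochondria, had the fourth largest fall, −0.38 ± 0.11 (limma, adjusted p = 0.0271), and Mrps17 the smallest, −0.17 ± 0.06 (adjusted p = 0.0491). Of the 8 genes with the smallest p for a lower level without the term, Mrpl47 (−0.28 ± 0.11, adjusted p = 0.0718) did not pass with it. With the block Mrpl11 (adjusted p = 0.0528), Mrps33 (0.074) and Mrps17 (0.133) did not pass, whereas Mrpl30, Mrpl18, Mrpl23, Mrpl15 and Mrps16 did.

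By class, 46 of the 77 members have a bacterial counterpart. With the term, against a background of 17% lower and 19.3% higher, 10 of 30 such large subunit genes and 5 of 16 such small subunit genes were lower in KO (3 and 1 were higher). The counts were 4 of 20 and 1 of 10 lower among genes specific to mitochondria (1 and 1 were higher). The median log2 fold changes were −0.12 and −0.15 for the classes with a bacterial counterpart and −0.01 and −0.02 for the classes specific to mitochondria. These medians are a description and the difference between classes was not tested. The heat map shows every member in every library by class.

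**Figure D5:**
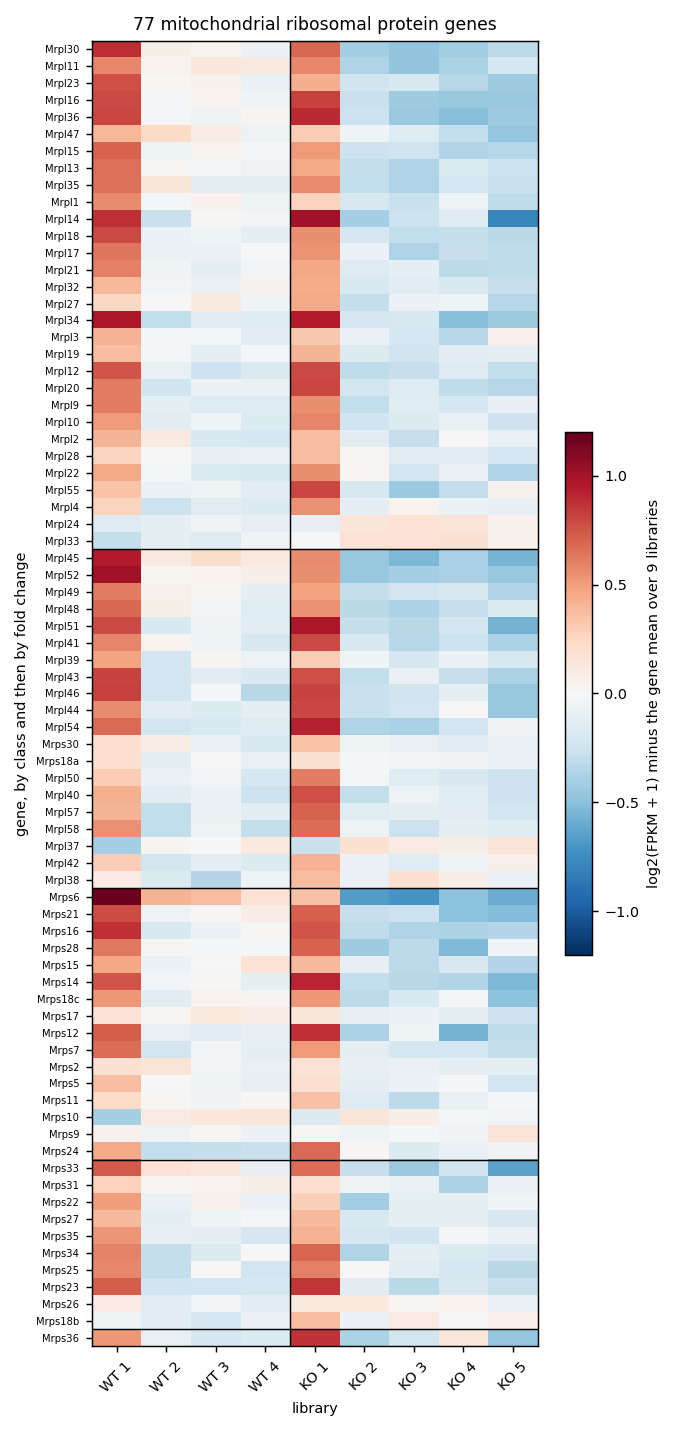
Level of each of the 77 genes in each library, as log2(FPKM + 1) minus the mean of that gene over the 9 libraries (red, above; blue, below). Rows are grouped, from the top, into large subunit with a bacterial counterpart, large subunit specific to mitochondria, small subunit with a bacterial counterpart, small subunit specific to mitochondria and Mrps36, and ordered by the fold change with the term. WT 1 and KO 1 are above all other libraries for 68 of the 77 genes (35.3% of all tested genes), and Mrps6, Mrpl45 and Mrpl52 are above their means in WT and below them in KO 2 to 5.

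Of the members with particular roles, all except Mrps18b did not pass the test with the term. Mrpl12, the stalk protein that in human cells also binds the mitochondrial RNA polymerase, was at 11.8 to 13.3 FPKM in WT 2 to 4 and 11.3 to 12.7 in KO 2 to 5 (log2 fold change −0.06 ± 0.05). Mrpl58, which releases peptides from stalled ribosomes, was at 8.72 to 10.4 and 8.99 to 10.4 FPKM (0.08 ± 0.06). Mrps36 was at 7.31 to 8.05 and 5.95 to 9.60 FPKM (0.02 ± 0.13). Of the 3 relatives of bacterial protein S18, Mrps18a (0.02 ± 0.04) and Mrps18c (−0.18 ± 0.10) did not pass, whereas Mrps18b rose with the term (0.22 ± 0.06, limma, adjusted p = 0.0293). Mrps30 (0.01 ± 0.07) and Mrps12 (−0.14 ± 0.10) did not pass either.

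Mitoribosome subunits that carry other names were also compared. All 5 (Dap3, Ptcd3, Chchd1, Aurkaip1 and Gadd45gip1) had log2 fold changes below 0 with the term, and Chchd1 (−0.30), Ptcd3 (−0.16) and Dap3 (−0.13) passed. Of all tested genes 47.1% were below 0 with the term and 17% passed as lower. With the block only Chchd1 of these 5 subunits passed (limma, adjusted p = 0.0392, against 0.0976 for Ptcd3 and 0.0891 for Dap3). Without WT 1 and KO 1 Ptcd3 did not pass (limma, adjusted p = 0.121). Among 10 translation factors none was called without the term, and with it Mrrf, which recycles mitoribosomes, and Tufm, the elongation factor that delivers tRNA, fell (−0.51 and −0.33). This share of 20% was near the background of 17%. Mrrf was at 4.39 FPKM in WT 1, 2.09 to 2.89 in WT 2 to 4, 3.05 in KO 1 and 1.30 to 1.41 in KO 2 to 5. Of the 15 mitochondrially encoded genes none was called without the term, and with it mt-Nd4 and mt-Cytb fell (−0.32 and −0.33), neither of them with the block. Their share with the term, 13.3%, was not above the background of 17%.

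Counts in the other parts of the pathway stand beside a background, with the term, of 19.3% higher and 17% lower. Of 24 tested assembly and rRNA modification genes, Mrm1, an rRNA methyltransferase, passed in both fits and was higher in KO (log2 fold change without the term 0.43 ± 0.10, limma, adjusted p = 0.0294), at 7.12 to 8.07 FPKM in WT and 9.40 to 12.6 in KO. Of 21 tRNA synthetases and tRNA enzymes none passed without the term, and with it Sars2, Iars2, Mtfmt and Mars2 rose (0.38, 0.29, 0.26 and 0.25) and none fell (with the block, 5 rose, these and Pars2). Of 11 transcription and mRNA stability genes 2 were higher and 1 was lower with the term. Fastkd1, which acts on mitochondrial RNA, was higher in both fits (0.48 ± 0.12 without the term, limma, adjusted p = 0.043). Of 9 tested regulators of mitochondrial biogenesis 3 were higher and 1 was lower with the term. Among them Myc was lower in both fits (−0.83 ± 0.13 without the term, limma, adjusted p = 0.00543), at 39.5 to 59.1 FPKM in WT and 24.5 to 30.8 in KO, and Esrra was higher (0.31 ± 0.08, limma, adjusted p = 0.0471).

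Cytosolic ribosomal protein and respiratory chain genes had medians further from 0 than the members. With the term 74 of 88 cytosolic ribosomal protein genes were lower in KO and none was higher, with a median log2 fold change of −0.36. Of 77 nuclear respiratory chain genes 38 were lower and 1 was higher, with a median of −0.19, while the members had 20 lower, 6 higher and a median of −0.09. Without the term none of these genes passed in either group (medians −0.42 and −0.24, and −0.11 for the members). With the block 70 cytosolic ribosomal protein genes (79.5%) and 19 respiratory chain genes (24.7%) were lower. The background over all tested genes was 17% lower and 19.3% higher with the term, and 13.1% lower with the block. The differences between groups were not tested.

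Markers of other cells and of growth were compared as well. Without the term the background was 3.21% higher and 3.55% lower, and with it 19.3% and 17%. Of 12 B cell markers 5 were tested and 3 were lower in KO without the term. Their summed level was 27.7 to 36.8 FPKM in WT and 17.1 to 31.7 in KO (17.1 to 18.9 in KO 2 to 5). Ms4a1 and Ebf1 were at 0 in at least 1 KO library and at most 0.393 FPKM elsewhere. The summed level of 10 myeloid and dendritic markers was 12.2 to 37.1 FPKM in WT and 3.47 to 18.6 in KO (3 tested, none called with or without the term). Without WT 1 and KO 1 all 3 were lower in KO (background 17.1%), with sums of 35.1 to 37.1 FPKM in WT 2 to 4 and 3.47 to 10.2 in KO 2 to 5. The summed level of 6 plasma cell markers was 59.4 to 125 FPKM in WT and 31.2 to 68.2 in KO. Of 4 tested, 2 were higher and 2 lower with the term, and 1 was higher and 1 lower without it. The summed level of 8 CD8 T and NK cell markers was 13.8 to 20.9 FPKM in WT and 7.8 to 17.5 in KO, with 2 of 4 tested lower with the term and none called without it. The summed level of 15 cell cycle genes was 195 to 300 FPKM in WT and 125 to 272 in KO. With the term 6 of the 15 were lower, and without it none was called. In the pair that stood apart, the sums in KO 1 were at 102% (B cell), 153% (myeloid and dendritic), 115% (plasma cell), 83.7% (CD8 T and NK) and 90.6% (cell cycle) of those in WT 1. In bulk cells a change in the mixture and a change per cell cannot be told apart, and the part of these cells in the members' values was not tested.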

How the data were processed

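RNA of sorted splenic Tregs was sequenced paired-end in 9 libraries (4 WT, 5 KO). Per the submitters' notes, CASAVA and fastp were used with mm10. The sources do not name an aligner, a counter, an annotation or a strand setting. The authors deposited FPKM, reads per gene divided by exon length and by a library constant. Median-ratio factors of these values were 1.01 in all libraries, so a scaling across libraries is already in them. Whole reads were recovered with GENCODE M21 lengths for 24387 of 25500 entries (95.6%, within 0.01 read) and gave 12068195 to 24522263 reads per library.

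limma 3.58.1 (R 4.3.3) with a trend was fitted to log2(FPKM + 1), over genes above 1 FPKM in at least 4 libraries, with Benjamini-Hochberg adjustment over all tested genes at 0.05. The fit without the term was also run on simulated data in which WT 1 and KO 1 had no difference of their own. That run does not check the fits with the term or the block. Single genes were also tested by exact permutation over libraries. Alternatives were no filter, a mean above 5 FPKM, a pseudocount of 0.1, other scalings, limma-voom on recovered reads, a term for WT 1 and KO 1, a replicate block, and each library left out. The labels do not tie each library to its own mouse, so p-values measure the spread between libraries, which may be technical.

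Replicate numbers were checked as pairs: deviations of same-numbered libraries correlated at 0.87, 0.43, 0.32 and 0.47 for numbers 1 to 4, and at 0.01, −0.09 and −0.11 for numbers 2 to 4 without WT 1 and KO 1. Over all 9 libraries WT 1 and WT 2 matched the KO library of their own number best, but WT 3 matched KO 4 and WT 4 matched KO 2. These values do not show that numbers 2 to 4 are pairs. Blocked counts stand beside the main ones.

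Members, lists and tests were chosen with earlier results of these data known. Named genes were the 5 highest and 3 lowest of each name, the 8 smallest p in each direction, members without overlap, the 4 most variable, members with a particular role and, in each list, the smallest p and called genes. Kinases named Rps6k and assembly factors named Ndufaf were left out of the comparison groups.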

Additional observations from a re-analysis of the deposited data

Results flagged for a closer look

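WT 1 and KO 1 each lay far from the other libraries of their genotype. The summed level of the 77 genes was 1524 FPKM in WT 1 and 1538 FPKM in KO 1. The large subunit genes summed to 1073 FPKM in WT 1 and 1082 FPKM in KO 1, and the small subunit genes to 439 FPKM in WT 1 and 439 FPKM in KO 1, each separated from the remaining libraries by more than a 95% critical ratio of gap to range (Dixon). Gene by gene, WT 1 was separated in this way for 35 members and KO 1 for 53 members, and no other library was separated for any member. Chance alone separates about 1 in 20 groups. The counts of members cannot be set against this rate, because the members share the same 2 libraries and are not independent. WT 1 and KO 1 also lay apart on the first principal component over all tested genes. No such count over all tested genes is given here, and whether the members exceed other genes in it was not tested. RNA quality, cell state and batch of these 2 libraries were not tested.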

How the results depend on the processing

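Without the term, no member was called with no filter on low values, with a mean above 5 FPKM, with a pseudocount of 0.1, with median-ratio scaling or with limma-voom on recovered reads (72 members), while TPM scaling (equal totals) called 1 lower and TPM scaling without Gm23935 called 3 lower. Leaving out 1 library in turn gave 0 to 1 members higher and 0 to 3 lower, the highest both without KO 1; the median ran from −0.28 to 0.01, and over all genes 196 to 805 were higher and 189 to 817 lower. Leaving out both WT 1 and KO 1 gave 3 members higher and 20 lower (all genes 2359 and 2062), the term 6 and 20 (2377 and 2094), and the replicate block 3 and 9 (1841 and 1607). A mean above 5 FPKM gave 218 genes higher and 183 lower, with fewer genes tested (7704), and TPM scaling 226 lower.

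Further settings were added after the values had been seen. With the term, a pseudocount of 0.1 gave 6 members higher and 20 lower (all genes 2398 and 2067), no filter 3 and 13 (2205 and 2304), limma-voom on recovered reads 6 and 17 of 72 (2611 and 2607), TPM scaling 0 and 2 (1678 and 754) and TPM scaling without Gm23935 8 and 13 (3110 and 1852). Leaving out each of the other 7 libraries with the term gave 3 to 6 members higher and 12 to 17 lower (1875 to 2358 and 1497 to 2116 of all genes), and 15 of the 26 genes were called whichever was left out. Of 20 named genes 1 changed direction, Mrpl37 without WT 1 (log2 fold change −0.0018, up to 0.19 without KO 1). For Mrps6 the log2 fold change ran from −1.15 to −0.74. The causes of these differences were not tested. With 3 and 4 similar libraries per genotype, small differences near the threshold are the least reliable.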
